A study of Homo sapiens with 4 samples.

Results

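The 14-3-3 family is described here as the 7 human genes YWHAB, YWHAE, YWHAG, YWHAH, YWHAQ, YWHAZ and SFN, of 58174 named genes measured. The genes were matched by symbol, and they were chosen because YWHAH was lower after radiation in 1 of the 2 cell lines, so their radiation values below are a description without a test. RNA sequencing was carried out on 4 libraries from 2 human pancreatic cancer cell lines, to ask which transcripts change in dying tumor cells after irradiation. SW1990 was grown in 1640 medium and PANC-1 in DMEM, both with 10% FBS and at passage 14-16. Each line gave 1 unirradiated library and 1 library exposed to 10 Gy of X-ray radiation, with no genetic alteration added. Total read counts were 17939210 and 18388969 in unirradiated and irradiated SW1990 cells, and 23451153 and 20154644 in unirradiated and irradiated PANC-1 cells. As there was 1 library per condition, no radiation difference has a replicate check within its line, and every 95% interval below is an exact Clopper-Pearson interval that covers counting error only.

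The 14-3-3 proteins are small, acidic adaptor proteins that work as dimers and bind other proteins at sites phosphorylated on serine or threonine. By binding they hold a client in the cytoplasm, block its activity or protect it from phosphatases, and many clients act in the cell cycle, in apoptosis and in growth factor signaling. The 7 genes encode the beta, epsilon, gamma, eta, theta, zeta and sigma isoforms in the order listed above. SFN, which encodes the sigma form (stratifin), is mostly found in epithelial cells, is known to be induced by DNA damage and takes part in the G2 checkpoint. 14-3-3 proteins are also commonly found in extracellular vesicles, the particles that the study followed in irradiated cells.

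The isoforms are similar in coding sequence, which bears on how well their reads can be counted separately. Across the coding sequences of the GENCODE 29 annotation (build GRCh38), pairwise identity ran from 59.4% between YWHAE and SFN to 78.6% between YWHAG and YWHAH. The same 60 bases of coding sequence, the stretch within 1 exon in which the genes shown are most like YWHAH, are given for every member but YWHAZ so that the differences between copies can be seen. They lie at chr22:31956549-31956608 (+ strand) for YWHAH, chr7:76329764-76329823 (- strand) for YWHAG, chr1:26863701-26863760 (+ strand) for SFN, chr2:9588205-9588264 (- strand) for YWHAQ, chr17:1361119-1361178 (- strand) for YWHAE and chr20:44905032-44905091 (+ strand) for YWHAB, and capitals mark the bases that differ from YWHAH.
YWHAH: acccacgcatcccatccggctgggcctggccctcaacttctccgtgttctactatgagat
YWHAG: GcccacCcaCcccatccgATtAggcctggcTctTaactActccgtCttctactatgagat
SFN: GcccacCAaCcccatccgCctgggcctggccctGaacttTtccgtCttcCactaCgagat
YWHAQ: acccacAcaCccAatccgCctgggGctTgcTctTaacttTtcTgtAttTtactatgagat
YWHAE: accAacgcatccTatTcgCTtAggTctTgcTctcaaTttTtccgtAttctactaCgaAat
YWHAB: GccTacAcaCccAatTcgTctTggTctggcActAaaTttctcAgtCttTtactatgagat
From YWHAH, this stretch differed at 10 bases in YWHAG and in SFN, 12 in YWHAQ, 14 in YWHAE and 15 in YWHAB.

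Over stretches as short as a read the copies were more distinct. The longest run shared by YWHAH and YWHAG was 39 bases, and 1.41% of the 30-base words of the YWHAH coding sequence occurred in another family member. None of the 30-base words of YWHAH, YWHAG or SFN occurred in the 22 annotated transcripts of 14-3-3 pseudogenes, against 36% for YWHAE, 10.4% for YWHAB and 3.82% for YWHAQ. For YWHAZ the share was 89.4%, with a run of 221 bases in common with the pseudogene YWHAZP3, so reads of YWHAZ are the least certain of the family. The 20 pseudogenes in the table took few reads: 11 were at 0 in every library, and all together they had 85, 82, 139 and 87 counts in unirradiated SW1990, irradiated SW1990, unirradiated PANC-1 and irradiated PANC-1 cells, at most 0.244% of the family's counts in any of the 4 libraries. YWHAZP3 was the most counted, with 49, 40, 61 and 44 counts in the same order. It was followed by YWHABP2, YWHAZP4, YWHAZP5 and YWHAEP5, with 73, 51, 24 and 22 counts over all libraries.

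The gene structures also differ. SFN is coded by 1 exon and YWHAH and YWHAG by 2, whereas YWHAB and YWHAQ have 5 coding exons and YWHAE has 6. YWHAH overlaps C22orf24 on the opposite strand over 1058 bases, and C22orf24 had 62, 77, 8 and 5 counts in unirradiated SW1990, irradiated SW1990, unirradiated PANC-1 and irradiated PANC-1 cells. Whether the counting used strand is not given in the sources used here, but these counts were small beside those of YWHAH.

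All 7 genes were transcribed in both lines, and all 7 passed the filter of 1 FPKM (fragments per kilobase, a level scaled to transcript length and sequencing depth) in each line. In unirradiated SW1990 cells the per-length order was YWHAZ, YWHAE, YWHAQ, SFN, YWHAG, YWHAB and YWHAH, from 273 to 56.5 FPKM. In unirradiated PANC-1 cells the range was 300 FPKM for YWHAZ to 40.9 FPKM for YWHAB, and SFN ranked 6 of 7 rather than 4 of 7. On FPKM, YWHAZ was the highest member in each of the 4 libraries. By counts it was not in irradiated SW1990 cells, with 8203 against 8355 for YWHAE and 8296 for YWHAQ. Without replicates, neighbours in this order cannot be separated by their spread.

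**Figure D1:**
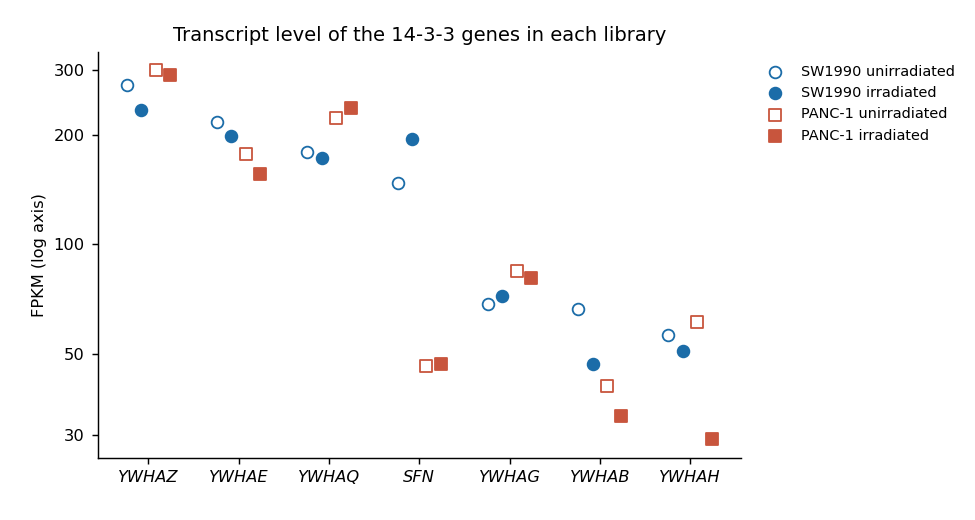
Level of each 14-3-3 gene in FPKM on a log axis, with 1 point per library (circles SW1990, squares PANC-1, open unirradiated, filled irradiated). SFN is the gene whose lines stand farthest apart, and YWHAH in irradiated PANC-1 cells is the lowest point at 29.2 FPKM.

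YWHAH, the eta isoform, lies at chr22:31944461-31957603 on the + strand. It had 2183 counts in unirradiated and 2010 counts in irradiated SW1990 cells, and 3194 counts in unirradiated and 1272 counts in irradiated PANC-1 cells. The irradiated PANC-1 library was the low one, and the other 3 libraries lay within a narrow range of 51.0 to 61.1 FPKM, against 29.2 FPKM. On TMM-scaled counts, the log2 fold change after radiation was -1.20 in PANC-1 cells (interval -1.29 to -1.10) (a percent change of -56.4%). In SW1990 cells it was -0.10 (interval -0.19 to -0.01). The deposited FPKM gave -1.07 and -0.15, so YWHAH was past 2-fold in PANC-1 cells by both kinds of value.

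YWHAH was the 1 member of 7 past 2-fold in PANC-1 cells, where 4.18% of the 15159 genes tested were lower and 4.95% higher by that much. No member was past 2-fold in SW1990 cells, where 4.63% of 15731 genes were lower and 4.9% were higher. Nothing is read from these counts, as the genes were chosen on this contrast. The member next below YWHAH in size of decrease in PANC-1 cells was at -0.38, so the family held no other gene near the limit. Many genes past the limit are lowly expressed: of the 5133 genes with at least 1000 counts in 1 PANC-1 library, 95 (1.85%) were lower by more than 2-fold. Of the same genes, 62 (1.21%) were as far down as YWHAH or farther. Nothing is read from that share either, since the family was chosen for this decrease.

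YWHAB, the beta isoform (chr20:44885676-44908532, + strand), was lower after radiation in both lines. Its counts were 4459 and 3174 in unirradiated and irradiated SW1990 cells, and 3751 and 2630 in PANC-1 cells. In each line the irradiated library was the lower one, at 47.0 against 66.6 FPKM in SW1990 and 33.7 against 40.9 FPKM in PANC-1 cells. The log2 fold change was -0.47 in SW1990 cells (interval -0.54 to -0.40) and -0.38 in PANC-1 cells (interval -0.45 to -0.31), and neither reached 1.5-fold. On FPKM the values were -0.50 and -0.28.

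SFN (chr1:26863138-26864457, + strand) was the member with the highest log2 fold change, in SW1990 cells. Its counts were 4275 and 5746 in unirradiated and irradiated SW1990 cells, and 1775 and 1551 in PANC-1 cells. Both SW1990 libraries stood above both PANC-1 libraries, at 147 and 194 FPKM against 46.5 and 47.0 FPKM. The log2 fold change after radiation was 0.45 in SW1990 cells (interval 0.39 to 0.50), under 1.5-fold. In PANC-1 cells it was -0.06 (interval -0.16 to 0.03), with 0.01 from FPKM and 0.03 with scaling by total counts, so no direction can be given.

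YWHAE, the epsilon isoform (chr17:1344272-1400378, - strand), had 8864 and 8355 counts in unirradiated and irradiated SW1990 cells and 9590 and 7320 counts in PANC-1 cells. Its log2 fold change was -0.06 (interval -0.11 to -0.02) in SW1990 and -0.26 (interval -0.30 to -0.22) in PANC-1 cells, or -0.13 and -0.18 on FPKM and -0.12 and -0.17 with scaling by total counts. YWHAG, the gamma isoform (chr7:76326794-76359031, - strand), had 5671 and 6050 counts in SW1990 cells and 9139 and 7561 counts in PANC-1 cells. YWHAG was slightly higher after radiation in SW1990 cells, at 0.11 (interval 0.06 to 0.17), and slightly lower in PANC-1 cells, at -0.14 (interval -0.19 to -0.10), and the difference between the lines was not tested.

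YWHAQ, the theta isoform (chr2:9583972-9631014, - strand), had 8458 and 8296 counts in SW1990 cells and 13819 and 12656 counts in PANC-1 cells. Its log2 fold changes were -0.01 (interval -0.05 to 0.04) and 0.00 (interval -0.03 to 0.04), or -0.05 and 0.09 on FPKM. YWHAZ, the zeta isoform (chr8:100916525-100953388, - strand), had 9390 and 8203 counts in SW1990 cells and 15683 and 11026 counts in PANC-1 cells. In SW1990 cells its log2 fold change was -0.17 (interval -0.22 to -0.13), with -0.23 from FPKM.

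In PANC-1 cells YWHAZ depended on which of the deposited values was read. Its counts gave a log2 fold change of -0.38 (interval -0.41 to -0.34), whereas its FPKM, 300 and 291, gave -0.05. Over the 4342 genes with at least 1000 counts in both PANC-1 libraries, the FPKM change exceeded the count change by a median of 0.08 on the log2 scale. YWHAZ exceeded it by 0.33, more than 93.4% of those genes, while the other 6 members exceeded it by 0.08 to 0.13. YWHAZ has 23 annotated transcripts, the most in the family, and the part of transcript choice in the 2 values was not tested.

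**Figure D2:**
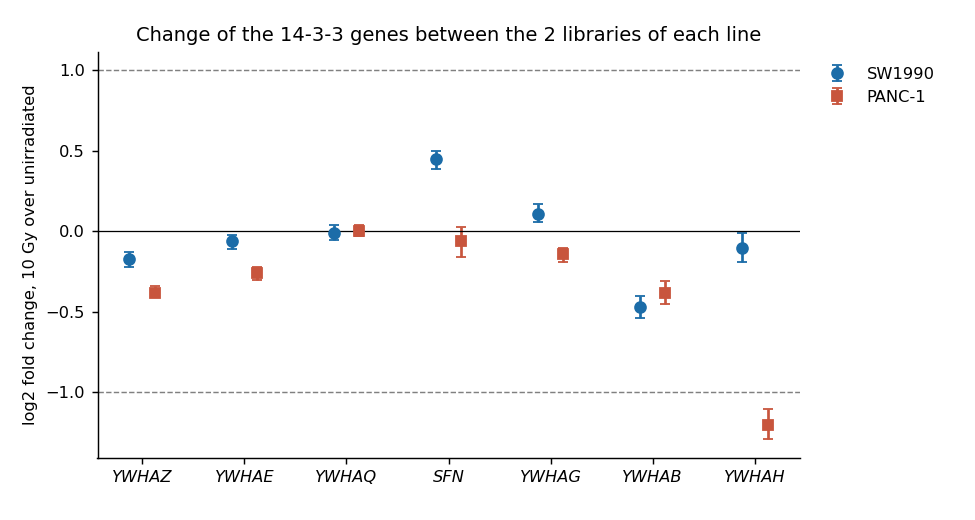
Log2 fold change of TMM-scaled counts, irradiated over unirradiated, for each 14-3-3 gene in SW1990 (circles) and PANC-1 (squares). Bars are 95% counting intervals, dashed lines mark 2-fold, and YWHAH in PANC-1 cells at -1.20 is the single point beyond them.

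Across the family in SW1990 cells, 2 genes were higher and 5 lower after radiation. Their median change was -0.06 on the log2 scale, beside 0.02 over all genes tested. In PANC-1 cells 6 genes were lower and YWHAQ was at 0.00 on TMM-scaled counts, with a median of -0.26 beside -0.02 over all genes. On FPKM 5 members were lower and 2 higher in PANC-1 cells, beside a median of 0.07 over all genes. YWHAH was at -1.07 on FPKM, YWHAB at -0.28 and YWHAE at -0.18, and the others lay between -0.06 and 0.09. Scaling by total counts moved the median of all genes by -0.06 in SW1990 and by 0.09 in PANC-1 cells, and SFN and YWHAQ were then slightly higher in PANC-1 cells. The summed level of the 7 genes changed little: it was 1007.9 FPKM in unirradiated and 968 FPKM in irradiated SW1990 cells, a ratio of 0.96. In PANC-1 cells it was 932 and 874 FPKM, a ratio of 0.938, or 0.846 by summed CPM (counts scaled to library size).

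The make-up of the pool differed more than its size. SFN accounted for 14.6% of the summed FPKM in unirradiated and 20.1% in irradiated SW1990 cells, against 4.99% and 5.37% in PANC-1 cells. YWHAH accounted for 5.61% and 5.27% in SW1990 cells and for 6.55% and 3.34% in PANC-1 cells. YWHAQ took a larger share in PANC-1 than in SW1990 cells, with 17.7% and 17.8% in SW1990 cells and 23.9% and 27.1% in PANC-1 cells. The 3 members highest on FPKM in PANC-1 cells, YWHAZ, YWHAQ and YWHAE, carried most of the summed FPKM in both conditions.

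**Figure D3:**
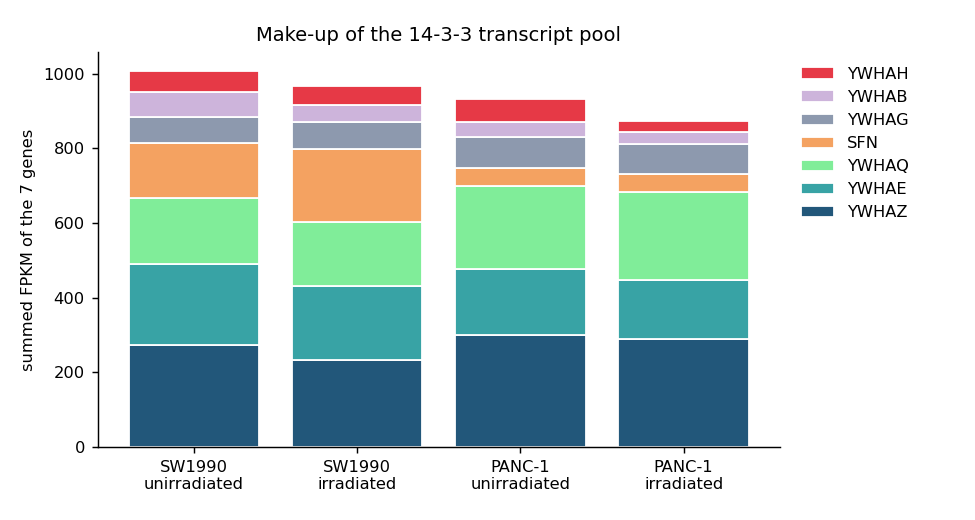
Summed FPKM of the 7 14-3-3 genes in each library, split by gene, on an axis that starts at 0. The total runs from 874 to 1007.9 FPKM, and the SFN band is wider in the SW1990 libraries than in the PANC-1 libraries.

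The lines were then compared with each other, a contrast that the choice of genes did not use directly. It does include the irradiated PANC-1 library, whose low YWHAH value led to the choice. The line value of YWHAH is therefore not independent of the choice. A fit of all 4 libraries with treatment as a covariate was tested with edgeR's quasi-likelihood test and Benjamini-Hochberg adjustment over 18180 genes, and it leaves 1 residual degree of freedom. The lines also differed in growth medium, which cannot be told apart from the line. SFN was higher in SW1990 cells by 1.69 on the log2 scale (SE 0.180, adjusted p = 0.00353 in edgeR's quasi-likelihood test), which is 3.22-fold. It was higher in SW1990 cells in both pairs of libraries, by 1.43 in the unirradiated and 1.94 in the irradiated pair. SFN passed the threshold in every alternative fit of all 4 libraries.

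YWHAQ and YWHAZ were higher in PANC-1 cells, with smaller differences. YWHAQ differed by -0.55 (SE 0.128, adjusted p = 0.0266, edgeR) and was at -0.55 and -0.56 in the unirradiated and irradiated pairs. YWHAZ differed by -0.48 (SE 0.136, adjusted p = 0.0454, edgeR), with -0.58 and -0.38 in the same pairs. These 2 calls were fragile. With the line alone in the model YWHAQ passed (adjusted p = 0.0135, edgeR) and YWHAZ did not (adjusted p = 0.0633, edgeR). With no filter on low counts neither YWHAQ nor YWHAZ passed (adjusted p = 0.0533 and 0.0881, edgeR). Both passed with DESeq2 size factors (adjusted p = 0.0267 and 0.0477, edgeR) and in DESeq2's Wald test (adjusted p = 1.24e-05 and 0.0029). Leaving out 1 library at a time, with the line alone in the model, gave -0.56 to -0.51 for YWHAQ and -0.62 to -0.27 for YWHAZ. With limma on log2(FPKM + 1), neither passed (adjusted p = 0.0757 for YWHAQ and 0.253 for YWHAZ).

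The other 4 genes did not pass. YWHAG was at -0.40 (SE 0.139, adjusted p = 0.0779, edgeR) and YWHAB at 0.37 (SE 0.133, adjusted p = 0.0837, edgeR). YWHAE was at 0.15 (SE 0.134, adjusted p = 0.423, edgeR). YWHAH was at 0.16 (SE 0.290, adjusted p = 0.687, edgeR), with the widest error of the family. Its pairs were also the farthest apart, at -0.39 between the unirradiated and 0.71 between the irradiated libraries. The irradiated pair holds the low value on which the genes were chosen. Hence 1 member was called higher in SW1990 cells, beside 21.4% of all genes, and 2 were called lower, beside 22.2% of all genes. With 43.6% of all genes called in either direction, 3 of 7 is close to the background share.

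**Figure D4:**
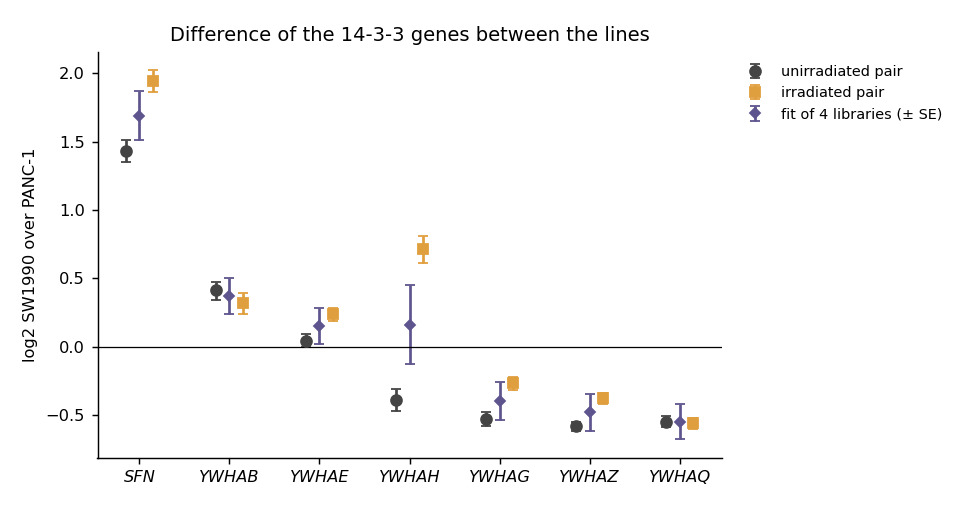
Log2 difference of SW1990 over PANC-1 for each 14-3-3 gene, in the unirradiated pair (circles), the irradiated pair (squares; both with 95% counting intervals) and the fit of 4 libraries (diamonds, ± SE). SFN lies above 0 in all 3 values, and YWHAH lies below 0 in the unirradiated and above 0 in the irradiated pair.

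The difference in SFN stood beside a broad difference in epithelial markers. Keratins KRT8, KRT18 and KRT19 were present in both lines, with KRT8 at 1350 and 786 FPKM in unirradiated SW1990 and PANC-1 cells. EPCAM, an epithelial adhesion molecule, was at 217 FPKM in unirradiated SW1990 and 2.28 FPKM in unirradiated PANC-1 cells. CDH1, E-cadherin, was at 140 and 0.673 FPKM, and both passed the line test (adjusted p = 0.00076 for each, edgeR). VIM, the intermediate filament of mesenchymal cells, was at 0.626 and 1630 FPKM. Of 6 markers of pancreatic ductal epithelium, 4 were called higher in SW1990 cells, beside 21.4% of all genes, and none higher in PANC-1 cells, while the 3 mesenchymal markers were all called higher in PANC-1 cells, beside 22.2% of all genes. KRT7 (-0.13, adjusted p = 0.766, edgeR) and KRT19 (0.31, adjusted p = 0.121, edgeR) did not pass.

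Markers of acinar, endocrine, leukocyte and endothelial cells were at or near 0, and those of fibroblasts were not all so. CPA1, AMY2A, INS, GCG, CD3E and DCN had no count in any library, PTPRC and PECAM1 had at most 2 counts, and PRSS1 had at most 12. The most counted of the leukocyte and endothelial lists were CD14, with at most 56 counts, and VWF, with at most 50. CD14 had 39 and 56 counts in unirradiated and irradiated SW1990 cells (0.54 on the log2 scale) and 26 and 52 counts in PANC-1 cells (1.13), and VWF had 14 and 50 counts in SW1990 cells (1.86). COL1A1, at 1.40, 2.85, 8.44 and 11 FPKM in unirradiated SW1990, irradiated SW1990, unirradiated PANC-1 and irradiated PANC-1 cells, was the highest of the fibroblast list, with log2 fold changes after radiation of 0.70 and 0.58 in SW1990 and PANC-1 cells. COL3A1 had no count in SW1990 cells and 80 and 77 counts in PANC-1 cells. After radiation 6 of 6 epithelial markers were higher in SW1990 cells, and their median change was 0.39 on the log2 scale. KRT7 and EPCAM were at 0.06 each, with a counting interval for KRT7 of -0.35 to 0.48. In PANC-1 cells 5 of 6 were higher, with a median of 0.14, and none passed 2-fold in either line. Of the mesenchymal markers, ZEB1 was also higher in irradiated SW1990 cells, with 14 and 66 counts in the unirradiated and irradiated library (2.26, interval 1.41 to 3.20), and was at -0.23 in PANC-1 cells. The part of these markers in the SFN values was not tested.

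The sigma protein is marked for degradation by TRIM25, and a list of 15 SFN regulators and checkpoint genes was examined. Of the 14 tested in SW1990 cells, 11 were higher and 3 lower after radiation, and 1 (7.14%) was higher by more than 2-fold, beside 4.9% of all genes. The median change on the log2 scale was 0.26 on counts and 0.08 on FPKM. In PANC-1 cells 7 were higher and 7 lower, with a median of -0.05 on counts and 0.10 on FPKM, and none was past 2-fold on TMM-scaled counts (1 with scaling by total counts and 2 on FPKM), beside 4.18% of all genes lower and 4.95% higher on TMM-scaled counts. The gene past 2-fold was CDKN1A, which encodes the cell cycle inhibitor p21. CDKN1A had 1229 and 4002 counts in unirradiated and irradiated SW1990 cells, which is 1.72 on the log2 scale (interval 1.63 to 1.82). In PANC-1 cells it had 1282 and 782 counts, which is -0.58 on the log2 scale (interval -0.71 to -0.45).

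Other members of the list were named after their values were seen, and no difference between the lines in their radiation response was tested. MDM2, a ubiquitin ligase of the DNA damage response, had 4522 and 7373 counts in SW1990 cells (0.73) and 3070 and 3273 counts in PANC-1 cells (0.22 on the log2 scale). On FPKM the order of the lines for MDM2 was reversed, at 0.43 in SW1990 and 0.57 in PANC-1 cells. TRIM25 had 2692 and 2457 counts in SW1990 cells (-0.11) and 5675 and 3446 counts in PANC-1 cells (-0.59, or -1.20 on FPKM). TP73 had 535 and 831 counts in SW1990 cells (0.66, or -0.19 on FPKM) and 79 and 144 counts in PANC-1 cells (at the 2-fold limit but not past it on TMM-scaled counts, interval 0.59 to 1.41, and 1.37 on FPKM), and with TRIM25 it made up the genes past 2-fold on FPKM in PANC-1 cells. GADD45A, a DNA damage-inducible gene, had 471 and 756 counts in SW1990 cells (0.70) and 2130 and 1052 counts in PANC-1 cells (-0.89). TP63, a regulator of SFN, had no count in SW1990 cells and 2 counts at most in PANC-1 cells.

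Proteins that 14-3-3 binds were examined through a list of 40 clients. Of the 39 tested in SW1990 cells, 25 were higher and 14 lower, none past 2-fold (beside 4.63% lower and 4.9% higher among all genes), and the median change was 0.08. In PANC-1 cells 18 of 37 were higher and 19 lower, with a median of -0.01, and 1 (2.7%) was lower by more than 2-fold, beside 4.18% of all genes. That gene was RND3, which encodes a client that 14-3-3 removes from the plasma membrane. RND3 had 737 and 952 counts in SW1990 cells and 6699 and 2591 counts in PANC-1 cells, giving log2 fold changes of 0.39 (interval 0.25 to 0.53) and -1.24 (interval -1.31 to -1.17).

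The CDC25 phosphatases, which 14-3-3 proteins hold inactive after DNA damage, stayed within 1.5-fold. CDC25A, which had 1162 and 1591 counts in SW1990 and 695 and 862 counts in PANC-1 cells, was the highest of these at 0.47 and 0.44. BAD, a pro-apoptotic client, had 138 and 225 counts in SW1990 and 240 and 338 counts in PANC-1 cells (0.73 and 0.62). These genes were named after their values were seen.

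The 27 kinases that can write 14-3-3 binding sites did not pass 2-fold in either line, beside the same background shares. In SW1990 cells 16 of 25 tested were higher and 9 lower, with a median of 0.02. In PANC-1 cells 13 of 27 were higher and 14 lower, with a median of -0.07 on counts and 0.13 on FPKM. Larger differences were found between the lines. AKT2, a kinase that phosphorylates many 14-3-3 clients, had 1979 and 1927 counts in SW1990 cells and 38943 and 39819 counts in PANC-1 cells, a log2 difference of -4.23 (adjusted p = 0.000804, edgeR). PRKAA2, a catalytic subunit of AMPK, had 0 counts in both SW1990 libraries and 1505 and 1211 counts in PANC-1 cells. The line test called 3 kinases higher in SW1990 and 10 higher in PANC-1 cells, and 8 and 13 of the 40 clients in the same order, beside 21.4% and 22.2% of all genes. AKT2 and PRKAA2 were named after their values were seen.

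**Figure D5:**
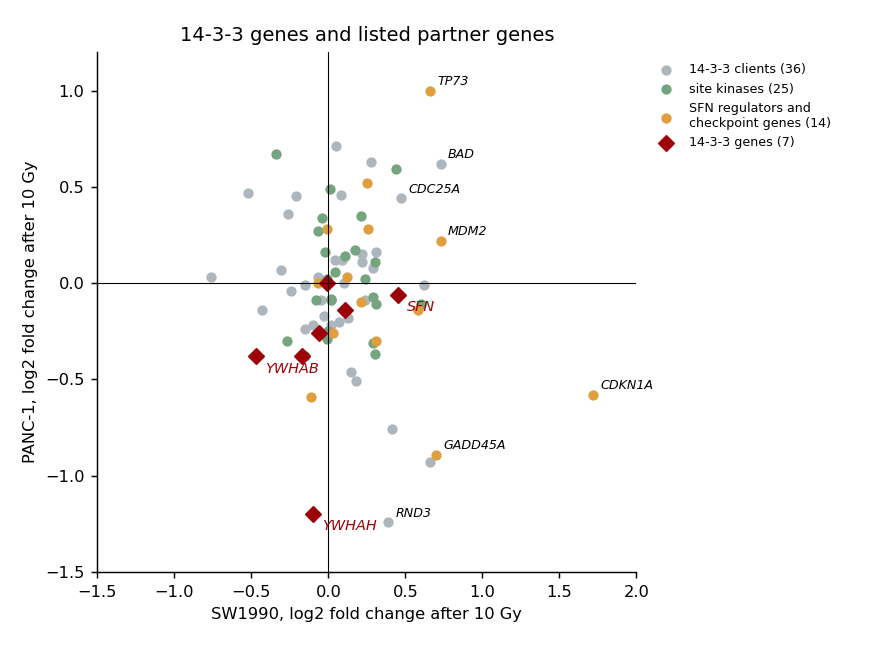
Log2 fold change after 10 Gy in SW1990 cells (horizontal axis) and PANC-1 cells (vertical axis) for the 14-3-3 genes (diamonds) and for the listed clients, site kinases, and SFN regulators and checkpoint genes (circles) tested in both lines. CDKN1A stands to the right at 1.72, and YWHAH and RND3 lie lowest at -1.20 and -1.24.

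Genes often used to normalise RNA measurements give a scale for these differences. Of the 8 examined in SW1990 cells, 3 were higher and 5 lower after radiation, and the median change was -0.05 on the log2 scale. In PANC-1 cells 1 was higher and 7 lower, with a median of -0.09, and 4 were higher and 4 lower there with scaling by total counts or on FPKM. GAPDH was at 0.11 and -0.11 in SW1990 and PANC-1 cells, ACTB at -0.08 and -0.19, PPIA at 0.01 and 0.10, and RPLP0 at -0.19 and -0.12. HPRT1 was at 0.14 and -0.01, and B2M at -0.02 and -0.01. TBP, with the fewest counts, was at -0.10 in SW1990 and -0.68 in PANC-1 cells. The changes of YWHAG and YWHAQ lay within the range of these genes in both lines. Those of YWHAE and YWHAZ did so too, but in PANC-1 cells only through TBP, since the next lowest gene was ACTB at -0.19. The change of YWHAH in PANC-1 cells, -1.20, lay outside the range.

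Genes that followed the same course as YWHAH were sought by Euclidean distance over the 4 libraries, in mean-centred log2(CPM + 1), among 10484 genes. The 5 nearest were GUSBP11 (distance 0.084), SELENOS (0.096), TMEM230 (0.149), DDX59 (0.156) and CASC4 (0.161). SELENOS, which encodes a selenoprotein of the endoplasmic reticulum, had 480, 426, 645 and 256 counts in unirradiated SW1990, irradiated SW1990, unirradiated PANC-1 and irradiated PANC-1 cells. All 5 were lower in irradiated PANC-1 cells, with log2 fold changes of -1.38 to -1.11. That likeness follows from their choice by distance to YWHAH and is not a separate result. No family member was close: the nearest was YWHAE, at a distance of 0.656.

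For SFN the 5 nearest genes were NUP50 (distance 0.097), PANK1 (0.103), KIAA0922 (0.147), TRANK1 (0.157) and SHISA5 (0.161). NUP50, which encodes a nuclear pore protein, had 4238, 5992, 1732 and 1642 counts in unirradiated SW1990, irradiated SW1990, unirradiated PANC-1 and irradiated PANC-1 cells. The nearest family member to SFN was YWHAB, at 1.476. These distances describe 4 libraries and carry no test.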

How the data were processed

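The authors deposited 1 table of read counts per gene and FPKM values for 4 libraries, 1 per line and condition. The submitters' processing notes name Trimmomatic 0.36, HISAT2 2.0 and StringTie 1.3.3b, and coordinates are on GRCh38. The tool that made the counts, the use of strand and the time between irradiation and RNA extraction are not given in the sources used here. The labels describe the RNA as rRNA depleted, whereas the methods name an mRNA library kit. The authors' FPKM values were read as deposited, and a 0 was set to 0.01 for ratios.

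Rows that name no gene (0.453% to 0.635% of counts) were left out. Fold changes are ratios of counts scaled by TMM over the 4 libraries (edgeR 4.0.16, R 4.3.3), for genes with at least 1 FPKM in 1 library of the line, and a gene past 2-fold was called. The line contrast used edgeR's quasi-likelihood test with treatment as a covariate, an adjusted p threshold of 0.05 and filterByExpr. The code was tested on simulated data. Alternatives were other scalings, FPKM, fold limits and filters, DESeq2 1.42.0, limma 3.58.1 and leaving out each library; TMM within each pair was added after the data were seen.

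The members, the lists of clients, kinases, checkpoint genes, reference genes and markers, and the alternatives were chosen with earlier results of these data known. Named were all members, from each list up to 4 genes past 2-fold with at least 5 FPKM, the reference genes, up to 5 pseudogenes by counts, and the 5 genes nearest to YWHAH and to SFN with a mean CPM of at least 10. Cell type markers came from the marker list, and other names were chosen after their values were seen. Some listed genes are counted in their lists but not reported here. Coding sequences were compared using GENCODE 29.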

Additional observations from a re-analysis of the deposited data

Results flagged for a closer look

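YWHAG was higher in irradiated than in unirradiated SW1990 cells (log2 fold change 0.11) and lower in irradiated than in unirradiated PANC-1 cells (-0.14), so the lines moved in opposite directions. With scaling by total counts the values were 0.06 and -0.05. Each line has 1 library per condition, and the difference between the lines was not tested.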

How the results depend on the processing

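The decrease of YWHAH in PANC-1 cells stayed past 2-fold under every scaling and on FPKM, with -1.07 as its smallest value, and the members counted past 2-fold did not change under any scaling or filter tried. The number of all genes past the limit did: in SW1990 cells it went from 1499 (9.53%) to 3231 (20.5%) at 1.5-fold, 7924 (29.8%) with no FPKM filter and 214 (2.86%) at 10 FPKM, and in PANC-1 cells from 1383 (9.12%) to 3278 (21.6%), 7915 (30.1%) and 191 (2.68%). The summed family level by summed CPM was 0.98 of the unirradiated level in SW1990 and 0.846 in PANC-1 cells.

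SFN was called higher in SW1990 cells in every alternative fit of all 4 libraries, and its difference was 1.46 to 1.91 over all alternatives. With no filter on low counts, 1 of the 3 called members remained (adjusted p = 0.0533 for YWHAQ and 0.0881 for YWHAZ, edgeR). Each library was also left out in turn, with the line alone in the model. The lone library of a line was assumed to vary like the pair of the other line. Only the differences of these fits are given, since 1 line then has 1 library. The line difference of YWHAH ranged from -0.39 to 0.77 in them, with -0.01 without the unirradiated SW1990 library. The 0.77 came without the unirradiated PANC-1 library, which leaves PANC-1 with the irradiated library alone. That library holds the low YWHAH value on which the genes were chosen, so the 0.77 is not a separate line result. YWHAG passed with DESeq2 (adjusted p = 0.0383) and YWHAB with limma on FPKM (0.0273). YWHAZ missed the threshold with the line alone in the model (0.0633, edgeR). The cause of these shifts was not tested. The labels carry no replicate numbers, so libraries could be matched by line or by treatment only. Treatment was held as a covariate in the line comparison, and a radiation test with line as a block, which would have 1 residual degree of freedom, was not run since the genes were chosen on that contrast.

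With 1 library per condition, counting intervals do not cover the variation between cultures in any radiation difference. The test of the lines rests on few libraries and 1 residual degree of freedom, and its errors do not measure that variation either. Transcript levels say nothing of protein, phosphorylation or vesicle content.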
